A study of Mus musculus with 6 samples.

Results

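The mutated molecule, labelled BiTS(mut), was compared with the isotype control through 4 of the 6 libraries of the series, isotype libraries 1 and 4 and BiTS(mut) libraries 2 and 5. All 6 libraries came from splenocytes of OT-I mice, whose CD8 T cells carry a transgenic T cell receptor for the ovalbumin peptide SIINFEKL, and the cell type is labelled as naive primary CD8 T cells. All cultures, the isotype cultures included, received SIINFEKL and were harvested after 48 h, and the other 2 libraries (3 and 6) were treated with BiTS. Libraries are called here by the numbers in their titles. Numbers 1, 2 and 3 form the first set and 4, 5 and 6 the second, so that library 2 was paired with 1 and library 5 with 4. The labels give neither the mutation in BiTS(mut), nor doses, nor whether the libraries of a group came from separate mice or cultures, so the tests reflect variation among these libraries alone.

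BiTS is a bispecific T cell silencer that binds the inhibitory receptor LAG-3 and the T cell receptor complex. LAG-3 restrains T cells when it lies close to an engaged T cell receptor, and signalling through that receptor passes by way of the CD3 chains and the kinase Lck to transcription factors such as Egr1, Irf4 and Nr4a1 and to effector genes such as Ifng and Prf1. A mutated form serves as a control for the intact molecule, and the question of the comparison is whether it changes these genes, or any others, by itself.

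None of 28 listed genes of LAG-3, the T cell receptor and T cell function passed the test between BiTS(mut) and isotype, although Ifng, Prf1, Gzmb and Selp passed when isotype library 1 was left out. Of the 13996 genes tested, 7 passed at an adjusted p under 0.05 (0.05% of the genes tested), 6 of them lower (0.0429%) and 1 higher (0.00714%) in BiTS(mut). The 6 lower genes are an annotated ribosomal RNA, 4 short transcripts annotated as miRNAs and Lars2, and the higher gene is a pseudogene. These calls came from edgeR's quasi-likelihood test with a block for the set. At an unadjusted p under 0.05 there were 620 genes (4.43%) with the block. Without it, 0 genes were called (0%) and 41 had such a p (0.293%), and with the block limma-voom called 8 and DESeq2 called 2.

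The sequences of 3 short transcripts called lower are shown because they bear on whether these 3 calls are separate measurements. Gm23935 (chr16:11144125-11144181, plus strand), Gm24270 (chr9:56223715-56223771, minus strand) and Gm24187 (chr13:9834469-9834525, minus strand) are each 57 bases long in GENCODE release M21 on GRCm38, 5′ to 3′, with the base that differs from Gm23935 in capitals.
Gm23935: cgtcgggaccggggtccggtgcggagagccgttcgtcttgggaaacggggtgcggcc
Gm24270: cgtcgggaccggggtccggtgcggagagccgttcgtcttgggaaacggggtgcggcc
Gm24187: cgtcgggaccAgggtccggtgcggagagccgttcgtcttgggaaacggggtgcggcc
Gm24270 is identical to Gm23935, and Gm24187 carries the substitution G11A, counted from the 5′ end of Gm23935. The authors' counting may have divided the same reads among these loci, so the 3 calls are not independent. A further identical copy, Gm24245, stayed between 0.0656 and 1.26 CPM and was not tested.

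Mir6236, the remaining gene annotated as a miRNA, lies at another locus and shared no run of 25 bases with another transcript annotated in GENCODE release M21. No full ribosomal RNA sequence was at hand, so Mir6236, Lars2 and the short loci above were not compared with one. Whether their calls are separate measurements was therefore not tested. The counts are from RNA libraries labelled as transcriptomic, and they do not measure the mature miRNA apart from longer RNA that covers the same bases.

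The 6 genes called lower were lower together in both sets. Levels are in CPM, a gene's count scaled by the library's total over genes, and do not correct for length, so they are compared between libraries and not between genes. Summed over the 6 genes, isotype libraries 1 and 4 held 1982 and 4758 CPM and BiTS(mut) libraries 2 and 5 held 1146 and 2067 CPM. BiTS(mut) was lower within each set, but library 5 of the second set lay above isotype library 1 of the first.

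CT010467.1, the gene annotated as ribosomal RNA (chr17:39846353-39848827), stood at 1481 and 3300 CPM in isotype libraries 1 and 4 and at 885 and 1627 CPM in BiTS(mut) libraries 2 and 5. Its log2 fold change was -0.87 ± 0.08 (SE; adjusted p = 2.56e-10), or 1.83-fold lower, with -0.70 in the first set and -1.03 in the second. Gm23935 was at 246 and 724 CPM in isotype and at 119 and 213 CPM in BiTS(mut), with a log2 fold change of -1.43 ± 0.13 (adjusted p = 3.49e-11). Here the BiTS(mut) libraries lay below both isotype libraries, as in 1132 genes in all (8.09%), and the difference was larger in the second set (-1.77) than in the first (-1.01).

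Lars2 encodes the mitochondrial leucyl-tRNA synthetase (chr9:123366927-123462666). It was at 223 and 639 CPM in isotype and at 126 and 206 CPM in BiTS(mut), with a log2 fold change of -1.26 ± 0.13 (adjusted p = 3.56e-09), -0.78 in the first set and -1.65 in the second. Mir6236 was at 10.1 and 28.1 CPM in isotype and at 5.71 and 7.81 CPM in BiTS(mut), with a log2 fold change of -1.39 ± 0.19 (adjusted p = 7.86e-06). Gm24270 had a log2 fold change of -1.89 ± 0.18 and Gm24187 of -1.80 ± 0.28, the former going from 16.9 and 50.7 CPM in isotype to 6.63 and 10.3 CPM in BiTS(mut). In each of the 6 genes isotype library 4 was the highest of all 6 libraries.

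Isotype library 4 set much of the size of these changes. Without it, the log2 fold change of Lars2 was -0.64, that of Gm23935 -0.88, that of Gm24270 -1.20 and that of CT010467.1 -0.71, all still called, while Mir6236 (-0.83, adjusted p = 0.204) and Gm24187 (-0.88, adjusted p = 0.57) no longer passed. Without BiTS(mut) library 5, Mir6236 also lost its call (-0.98, adjusted p = 0.354). DESeq2 kept 2 of the 6, CT010467.1 and Mir6236, spike-in scaling kept 1, Gm24270, and no gene of the 6 passed without the block.

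The same 6 genes were low in the intact molecule. BiTS libraries 3 and 6 held 1241 and 2118 CPM over the 6 genes, close to BiTS(mut) in each set, and all 6 genes were called lower in BiTS against isotype, a comparison that shares the isotype libraries. In the direct test of BiTS against BiTS(mut), none of the 6 passed. The log2 difference there was 0.10 for CT010467.1 (95% interval -0.06 to 0.27), 0.05 for Gm23935 (-0.20 to 0.30) and 0.04 for Lars2 (-0.22 to 0.31). Gm24187 had an interval of 0.14 to 1.37, and its difference of 0.75 failed the correction (adjusted p = 0.372).

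**Figure D1:**
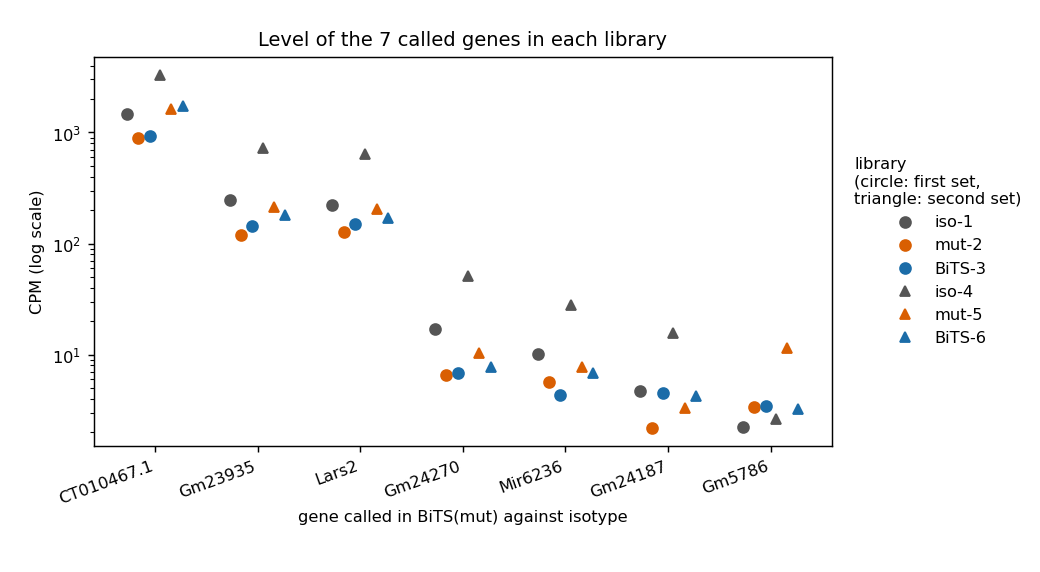
Level of the 7 called genes in each of the 6 libraries, in CPM on a log axis; circles are the first set and triangles the second, grey isotype, orange BiTS(mut) and blue BiTS. In the 6 genes called lower, isotype library 4 is the highest point and each BiTS(mut) point lies below the isotype point of its own set; in Gm5786, BiTS(mut) library 5 stands apart from the other 5 libraries.

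CT010467.1, Lars2 and Mir6236 stand in a list of ribosomal RNA-like transcripts, and its other 2 tested members, Gm42418 and Gm26917, did not pass. Gm42418, whose opposite strand holds 71.1% of the runs of 25 bases in CT010467.1, had a log2 fold change of 0.00 ± 0.12, with -0.26 in the first set and 0.30 in the second. Gm26917, a non-coding gene of the same list, had -0.04 ± 0.09. Whether Gm42418 is called turned on the isotype library kept: it was called higher without isotype library 1 (0.43, adjusted p = 0.0107) and called lower without isotype library 4 (-0.39, adjusted p = 0.00558). Reads of CT010467.1 and of Gm42418 cannot be told apart without the strand setting of the counting, which no label gives.

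The single gene called higher, Gm5786, rested on 1 library. It is a processed pseudogene (chr12:59081019-59081900) that shares 74.4% of its runs of 25 bases with Rps2, a gene for a protein of the small ribosomal subunit, so its counts are uncertain. It had 26 and 29 counts in isotype libraries 1 and 4 and 51 and 140 counts in BiTS(mut) libraries 2 and 5, and its level was 2.82-fold higher (95% interval 1.83 to 4.36, adjusted p = 0.031). Without BiTS(mut) library 5 its log2 fold change was 0.51 (adjusted p = 1), without isotype library 4 it was 1.08 (adjusted p = 0.363), and limma-voom gave an adjusted p of 0.107. Rps2 itself stood at 3030 and 4160 CPM in isotype and at 3390 and 4210 CPM in BiTS(mut).

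Each set gives its own ratio of BiTS(mut) to isotype, and the pairs share no library, so their agreement is a description of how far a change repeats. Over the 13996 genes, 6877 had the same sign in both pairs (49.1%), 3523 of them higher (25.2%) and 3354 lower (24%). The Pearson correlation of the log2 ratios of the pairs across these genes was 0.00, and Spearman's rho was -0.00, where genes are not independent replicates. For BiTS against isotype, paired in the same way, 56.1% of the genes had the same sign, with a Pearson correlation of 0.15.

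Among the 10238 genes with a mean of at least 5 CPM, 6 passed 1.5-fold in the same direction in both pairs of BiTS(mut) and isotype, and 3 passed it in opposite directions. The 6 are those called lower. For BiTS against isotype, 49 genes of the 10238 passed 1.5-fold the same way and 4 in opposite directions. In the 2075 genes at 100 CPM or more, the correlation between the BiTS(mut) pairs was 0.09, and leaving out those of the 6 genes that reach that level made it -0.03.

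The sign agreement rests on scaling within each library. With ERCC spike-in transcripts in place of the genes, the median of all genes shifted to -0.12 and 18% of genes had the same sign. The spike-in share was 7.54% of all counts in BiTS(mut) library 5, against 5.38% in its isotype partner, and 3.36% in BiTS(mut) library 2 against 4.03%. Changes are therefore given relative to the bulk of the genes.

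**Figure D2:**
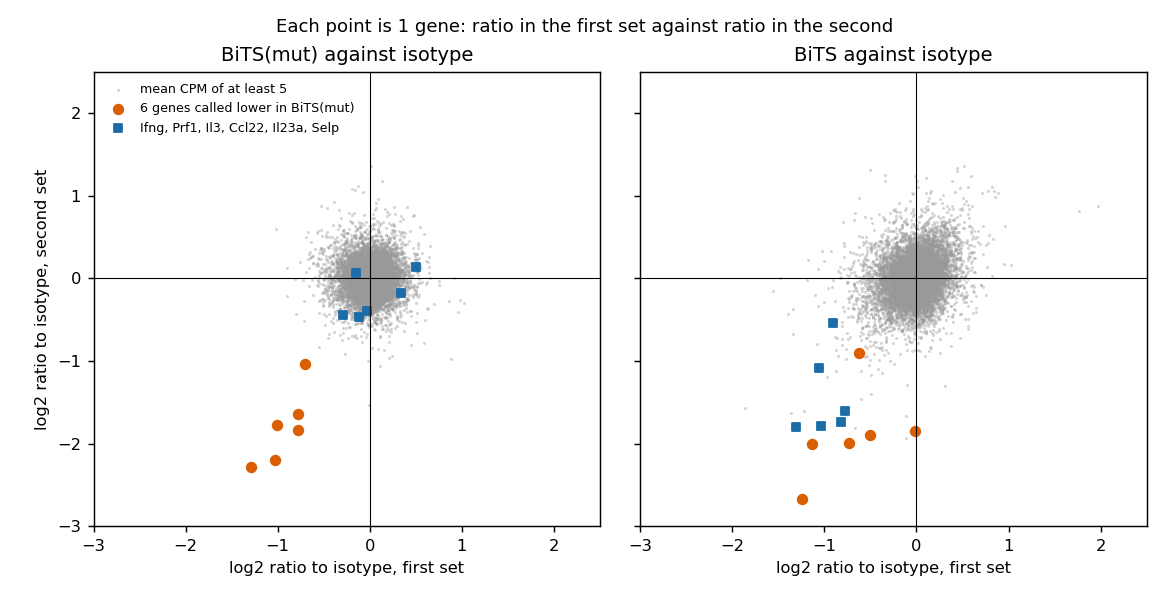
Log2 ratio to isotype in the first set (x axis) against the second set (y axis) for the 10238 genes with a mean of at least 5 CPM, for BiTS(mut) on the left and BiTS on the right; orange points are the 6 genes called lower in BiTS(mut) and blue squares are Ifng, Prf1, Il3, Ccl22, Il23a and Selp. On the left the blue squares lie between -0.47 and 0.50 in both sets, and on the right all 6 lie below 0 in both sets. These 6 are among the listed genes called lower in BiTS against isotype, so their place on the right is no separate result. Listed genes called higher in BiTS, among them Ltb and Tnfrsf8, are not marked.

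The size of change that the data exclude was measured for each gene with 2 one-sided tests per bound, adjusted over all genes tested. A 2-fold or larger change in either direction was excluded for 12023 genes (85.9%), and a 1.5-fold or larger change for 9816 genes (70.1%). The bound followed expression. Among the 5294 genes between 20 and 100 CPM, 99.5% had 1.5-fold excluded, and the 95% interval reached a median of 1.16-fold to either side of the estimate. Among the 937 genes under 1 CPM, 4.48% had 2-fold excluded and none had 1.5-fold excluded, so for most such genes changes of either size stay possible.

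Of the 10238 genes with a mean of at least 5 CPM, 10221 had a 2-fold change excluded. The other 17 include the 6 called lower, and among the rest are Cd22, a B cell receptor, Mmp9, a matrix protease of myeloid cells, and Adm, the peptide adrenomedullin, none of them called. These 3 were chosen after their values were seen.

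These bounds depend on the block and on the scaling. Without the block, 2-fold was excluded for 9225 genes and 1.5-fold for 0, and the median reach of the interval in the genes between 20 and 100 CPM rose from 1.16-fold to 1.43-fold. With spike-in scaling, 2-fold was excluded for 7090 genes and 1.5-fold for 1. With the block, each gene contributed 2 residual degrees of freedom to its variance estimate and all genes together 45.95, so a bound rests mostly on how genes of like expression vary.

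**Figure D3:**
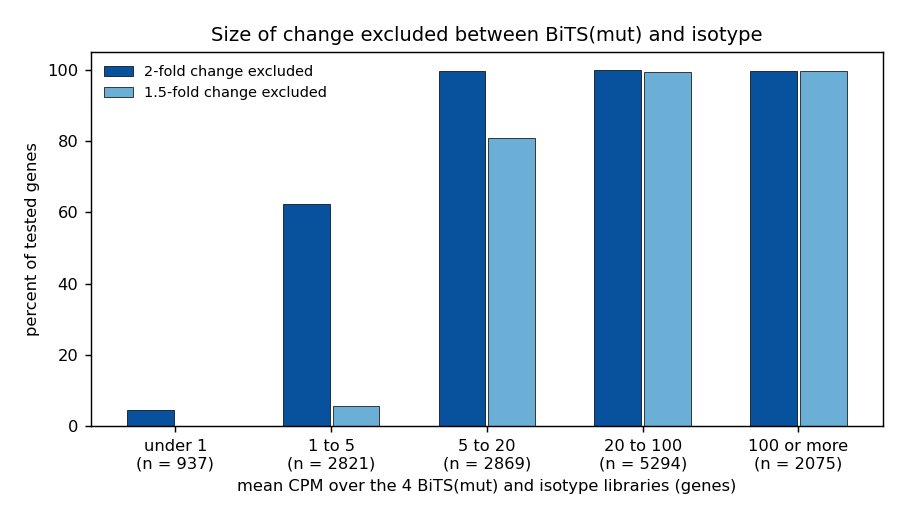
Percent of tested genes (y axis) for which a 2-fold or 1.5-fold change between BiTS(mut) and isotype was excluded in the fit with the replicate block, by mean CPM over the 4 libraries (x axis, with the number of genes). The 2-fold bars rise from 4.48% under 1 CPM to 99.6% between 5 and 20 CPM.

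Of the 28 genes that were named whatever their result, those of the receptors did not pass. Lag3, the receptor that BiTS binds, was at 563 and 555 CPM in isotype libraries 1 and 4 and at 595 and 647 CPM in BiTS(mut) libraries 2 and 5. Both BiTS(mut) libraries lay above both isotype libraries, as in 829 genes in all (5.92%), and the log2 fold change was 0.16 ± 0.08 (95% interval 0.00 to 0.33, adjusted p = 1). The CD3 chains Cd3d (0.07), Cd3e (-0.02), Cd3g (0.03) and Cd247 (0.12) had standard errors of 0.08 to 0.09 and did not pass. In the list of LAG-3, T cell receptor and CD8 genes, 0 of 10 tested members were called and all 10 had a 1.5-fold change excluded. Of all tested genes 70.1% had it excluded, and 99.8% of those at 100 CPM or more, the level of these 10.

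The kinase Lck, which phosphorylates CD3, was at 623 and 550 CPM in isotype and at 698 and 622 CPM in BiTS(mut). Its log2 fold change was 0.18 ± 0.08, with an interval of 0.03 to 0.34, and that of the phospholipase Plcg1 was 0.18 ± 0.08, with an interval of 0.02 to 0.35. Neither passed the correction (adjusted p = 1 for both), and both were called higher in BiTS (0.41 and 0.48). In the list of proximal T cell receptor signalling genes, 0 of 29 were called, 11 were higher in both pairs and 4 were lower in both. All 29 had 1.5-fold excluded. Of all tested genes, 25.2% were higher in both pairs, 24% were lower in both, and 70.1% had 1.5-fold excluded.

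Transcription factors that the receptor induces did not pass either. Egr1, an immediate early factor, was at 65.7 and 57.5 CPM in isotype and at 52.1 and 46.5 CPM in BiTS(mut), with a log2 fold change of -0.31 ± 0.10 (adjusted p = 0.848). Irf4, whose level tracks signal strength, had -0.21 ± 0.08, and Nr4a1, a nuclear receptor induced by the same signal, had 0.18 ± 0.08, neither of them called. The 27 tested members of that list divided into 8 higher in both pairs, 8 lower in both and 11 with opposite signs, and 0 were called.

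Among the effector genes, Ifng and Prf1 differed between BiTS and BiTS(mut) in the direct test, and Gzmb and Tnf did not pass it (adjusted p = 0.458 and 0.539). Ifng, the cytokine interferon gamma, was at 86.9 and 195 CPM in isotype, at 82.7 and 150 CPM in BiTS(mut) and at 33.9 and 55.6 CPM in BiTS. The BiTS(mut) values overlapped those of isotype, while both BiTS values lay below both isotype values. For BiTS(mut) the log2 fold change was -0.23 ± 0.09 (95% interval -0.41 to -0.04, adjusted p = 1), so at most a 1.33-fold decrease lies within the interval. BiTS against BiTS(mut) had a log2 difference of -1.35 (-1.55 to -1.15), which passed the test. Without the block, the interval for Ifng in BiTS(mut) against isotype ran from -1.49 to 0.94.

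Prf1, the gene of perforin, which opens pores in target cells, was at 80.1 and 132 CPM in isotype and at 72.2 and 95.6 CPM in BiTS(mut). Its log2 fold change was -0.29 ± 0.09 (-0.48 to -0.11, adjusted p = 0.747), against -1.08 for BiTS, and BiTS lay below BiTS(mut) by 0.78 (interval of the log2 difference -0.98 to -0.59). Gzmb, the protease granzyme B, was at 2900 and 3000 CPM in isotype and at 2880 and 2470 CPM in BiTS(mut), with a log2 fold change of -0.14 ± 0.08. Selp, the adhesion molecule P-selectin, had -0.37 ± 0.12 (adjusted p = 0.795).

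Ifng, Prf1 and Gzmb were lower mainly in the second set, a difference between the sets that was not tested. The log2 ratio of the pair in the first set was -0.03 for Ifng, -0.11 for Prf1 and 0.03 for Gzmb, and in the second set it was -0.39, -0.47 and -0.29. When isotype library 1 was left out, so that isotype library 4 was the only control, all 3 and Selp were called lower: Ifng at -0.42 (adjusted p = 0.00675), Prf1 at -0.41 (0.0228), Gzmb at -0.34 (0.000689) and Selp at -0.58 (0.0218). The only isotype library of that fit is also the control of the second pair, so its calls are no repeat of that pair. It called more genes than any other fit that left out a library. Leaving out isotype library 4 gave 15 calls, leaving out BiTS library 3 or 6 gave 12 each, and leaving out BiTS(mut) library 2 or 5 gave 9 and 7.

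No cytokine or chemokine of the lists passed in BiTS(mut). Of 15 tested T cell cytokines, 6 were lower and 1 was higher in both pairs, and of 9 chemokines 5 were lower and 0 higher, beside 24% lower and 25.2% higher over all tested genes. Negative values at an unadjusted p under 0.05 were found for 4 of the 15 cytokines, beside 282 of all 13996 genes tested. Among the 4 were Lif (-0.23 ± 0.09) and Lta (-0.21 ± 0.08), which act as a growth factor and as a relative of tumour necrosis factor. Csf2 (-0.45 ± 0.38), another growth factor, did not have 1.5-fold excluded. Il3, a haematopoietic growth factor, was at 24 and 19.6 CPM in isotype and at 29.7 and 17.5 CPM in BiTS(mut), with opposite signs in the pairs and a log2 fold change of 0.10 ± 0.14, against -1.14 for BiTS. Il23a, a subunit of interleukin 23, had 0.32 ± 0.14 (adjusted p = 1) against -1.22 for BiTS. The chemokines Ccl22 (-0.05 ± 0.09) and Ccl17 (-0.18 ± 0.13) were not called in BiTS(mut) and were called lower in BiTS (-0.73 and -1.02). Il2 stood at 0.43 to 1.05 CPM in these 4 libraries, close to the 0.197 to 0.270 CPM that a count of 3, the limit a count of 0 allows, stands for in them, so its interval of -0.65 to 1.66 is wide.

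Over the 28 listed genes, 0 were called and 26 had a 1.5-fold change excluded (all except Il2 and Selp). Among all tested genes 0.05% were called and 70.1% had 1.5-fold excluded. Of the 28, 6 were higher in both pairs, 10 were lower in both and 12 had opposite signs. The 28 genes were chosen with earlier results of these data known, so their shares called in BiTS are no independent finding. In BiTS against isotype 15 of the 28 were called (476 of all genes, 3.4%), with the isotype libraries shared. In the direct test of BiTS against BiTS(mut), 9 of the 28 were called (136 of all genes, 0.972%): Ifng, Prf1, Il3, Ltb, Ccl17, Ccl22, Il23a, Tnfrsf8 and Selp.

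**Figure D4:**
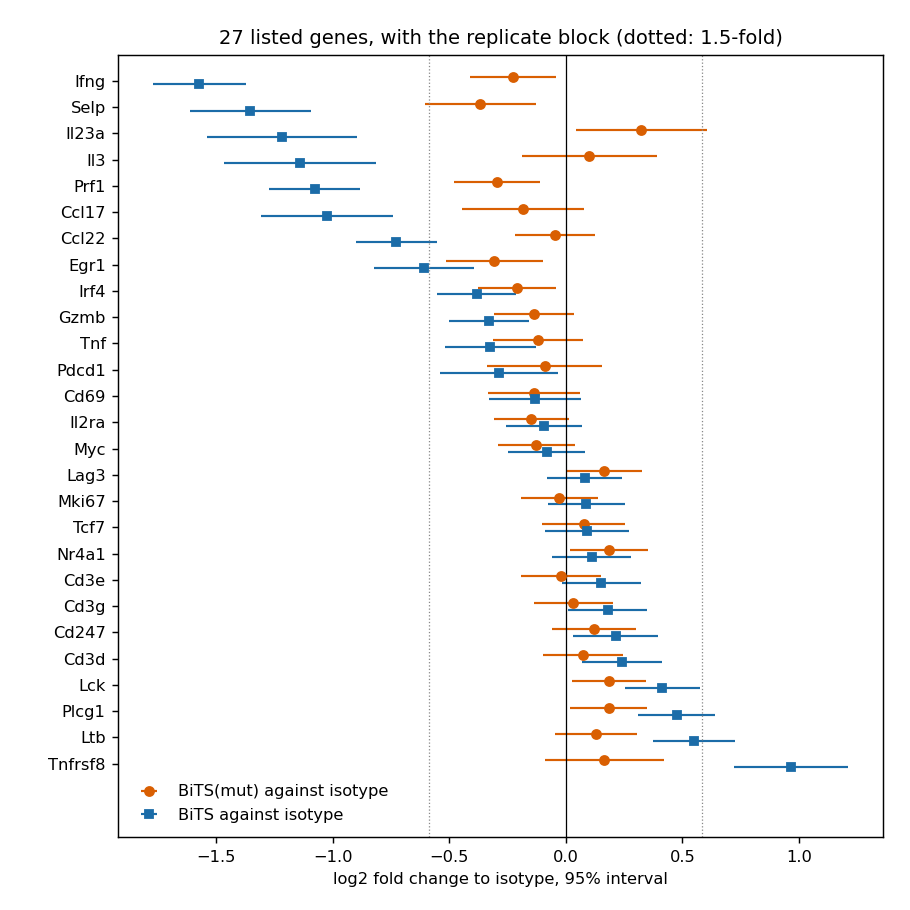
Log2 fold change to isotype with its 95% interval for 27 of the 28 listed genes (Il2, whose interval is wider than the axis, is left out), from the fit with the replicate block; orange circles are BiTS(mut), blue squares BiTS, and dotted lines mark 1.5-fold. The orange points lie between -0.37 and 0.32, and the blue points between -1.57 and 0.97; the blue and orange values share the isotype libraries.

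Genes that responded to BiTS can be read for BiTS(mut) side by side. Of the 476 genes called in BiTS against isotype, 454 had a 2-fold change excluded and 399 a 1.5-fold change excluded in BiTS(mut) against isotype, and the 6 genes called lower in BiTS(mut) are among the 476. The median absolute log2 fold change of these genes was 0.455 in BiTS and 0.167 in BiTS(mut), and they were chosen on the BiTS values with the same isotype libraries. In the direct test of BiTS against BiTS(mut), 106 of the 476 were called. Of the 44 genes that BiTS changed at least 2-fold, 24 (54.5%) had a 2-fold change and 9 (20.5%) a 1.5-fold change excluded in BiTS(mut). Over all genes the shares were 85.9% and 70.1%. Without the 6 genes called lower in BiTS(mut), they were 61.5% and 23.1% of 39 genes. Exclusion depends on expression, and the levels of the 44 were not compared with those of all genes. Of the 44, 5 were called in BiTS(mut), all among the 6 lower genes, and 19 were called between the molecules.

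Below the threshold, the naming rule took the genes with the smallest p that had the same sign in both pairs, 18 in number, with absolute log2 fold changes of 0.28 to 0.60 and adjusted p from 0.121 to 0.656. All 18 had a 2-fold change excluded and 9 a 1.5-fold change, beside 85.9% and 70.1% of all tested genes. Mt2, which encodes the metal-binding protein metallothionein 2, was at 33.3 and 31.3 CPM in isotype and at 46.7 and 42.6 CPM in BiTS(mut), with a log2 fold change of 0.48 ± 0.11 (adjusted p = 0.121). Both BiTS(mut) libraries lay above both isotype libraries, as in 829 genes in all (5.92%). Mt2 was called without isotype library 1, without BiTS library 3 or 6 and with no filter on low counts (adjusted p = 0.0228, 0.0245, 0.027 and 0.045), and Mt1, its neighbour, had 0.31 ± 0.08.

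Ddit3, a transcription factor of the stress response also known as CHOP, was at 81.2 and 63.8 CPM in isotype and at 96.3 and 85.8 CPM in BiTS(mut), with a log2 fold change of 0.35 ± 0.09 (adjusted p = 0.314). Angptl6, a secreted angiopoietin-like protein, had 0.47 ± 0.12. On the lower side, the interferon-induced genes Trim30a (-0.37 ± 0.09) and Usp18 (-0.47 ± 0.14) and the surface antigen gene Ly6a (-0.28 ± 0.08) were among 8 named. Without isotype library 1, Angptl6, Ddit3, Trim30a and Ly6a were called (adjusted p = 0.0345, 0.0324, 0.013 and 0.0218). Trim30a was at 101 and 92.7 CPM in isotype and at 77.0 and 71.3 CPM in BiTS(mut). Its BiTS(mut) libraries lay below both isotype libraries, as in 1132 genes in all (8.09%). In BiTS against BiTS(mut), Mt2 and Angptl6 were called, higher in BiTS by 0.40 and 0.45 on the log2 scale. Of the 18 genes, 14 were called in the same direction in BiTS against isotype, where 3.4% of all tested genes were called. That comparison shares the isotype libraries.

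Gene lists were described by their counts and medians, beside 25.2% of all tested genes higher and 24% lower in both pairs. Outside the ribosomal RNA list and the cell type markers, 30 lists held 0 called members in BiTS(mut) against isotype, and their median log2 fold changes ran from -0.15 for type I interferon response genes to 0.13 for ATF4 stress response genes.

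The list of cholesterol and fatty acid synthesis had 19 of 26 members lower in both pairs and 0 higher, with a median of -0.12. Its lowest member was Idi1, an isomerase of the mevalonate pathway, at 26.8 and 42.3 CPM in isotype and 25.7 and 26.8 CPM in BiTS(mut) (-0.37 ± 0.13, adjusted p = 0.912). Hmgcs1, which makes HMG-CoA for the same pathway, had -0.27 ± 0.08 with similar ratios in the pairs (-0.22 and -0.32). DNA replication genes had 18 of 32 lower in both pairs and 0 higher, with a median of -0.07. All 32 had 1.5-fold excluded, beside 70.1% of all tested genes. Ribosome biogenesis genes had 20 of 30 lower and 3 higher, with a median of -0.09. Without single libraries the medians of these 3 lists stayed below 0, between -0.18 and -0.01. With spike-in scaling they were -0.23, -0.20 and -0.22 in the same order, where the median of all tested genes was -0.12.

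No interferon response gene passed. Of 26 genes of the interferon gamma response, 13 were lower and 3 higher in both pairs (median -0.09), and of 21 genes of the type I response 13 were lower and 2 higher, with 6 of opposite signs (median -0.15). The median of the type I list was -0.05 in the first set and -0.16 in the second. Iigp1, an interferon-induced GTPase, had the lowest value of the former list, at 23.5 and 25.6 CPM in isotype and 19.8 and 17.0 CPM in BiTS(mut) (-0.40 ± 0.14, adjusted p = 0.848).

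On the higher side, ATF4 stress response genes had 14 of 24 higher and 1 lower in both pairs, with a median of 0.13. That median was 0.20 in the first set and 0.02 in the second. With spike-in scaling it was 0.01, where the median of all tested genes was -0.12. Slc7a11, the cystine transporter, had the highest value of the list (0.49 ± 0.14, adjusted p = 0.561) and was lower in BiTS than in BiTS(mut), with a log2 difference of -0.68 (adjusted p = 0.0069). NF-kB subunits and inhibitors had 9 of 15 higher and 1 lower in both pairs, with a median of 0.09, which turned to -0.02 with spike-in scaling. Glycolysis genes had 12 of 25 higher and 2 lower, with a median of 0.06. That median was 0.14 in the first set and 0.00 in the second, 0.00 to 0.12 without single libraries, and -0.06 with spike-in scaling.

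**Figure D5:**
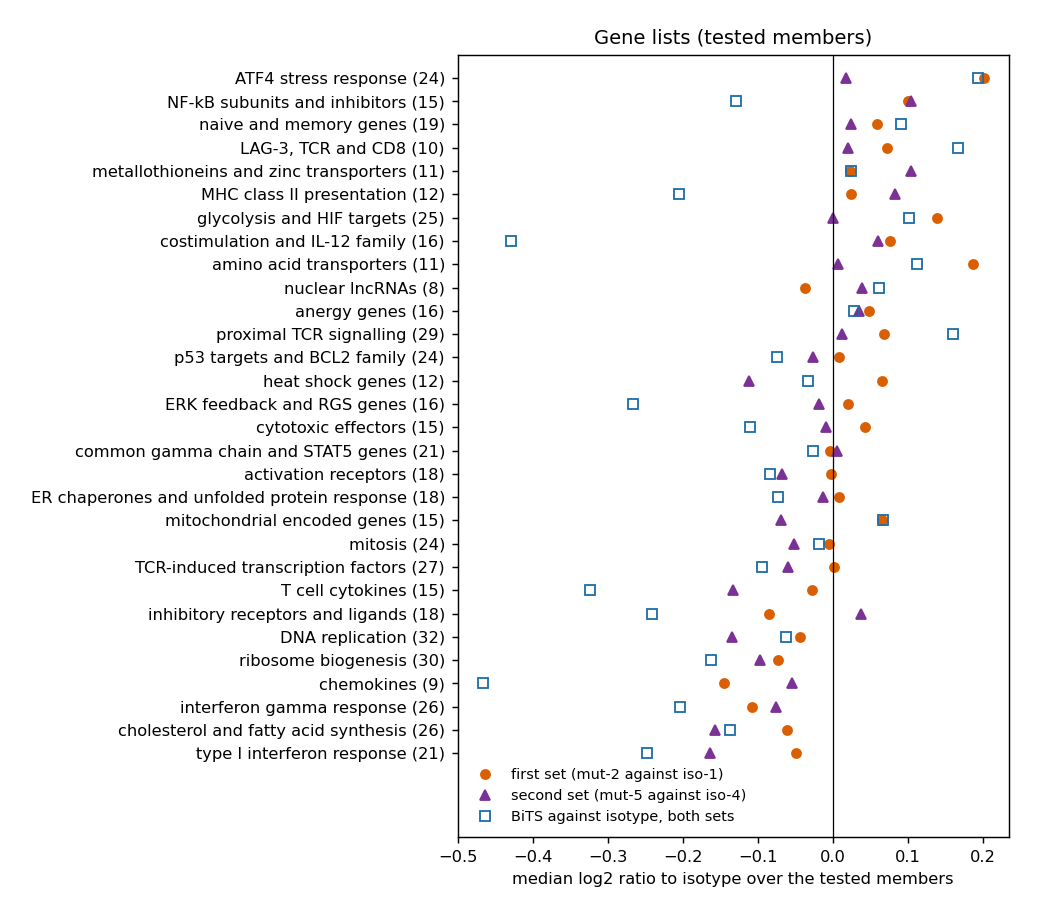
Median log2 ratio to isotype over the tested members of 30 gene lists (the number tested in brackets): orange circles for BiTS(mut) in the first set, purple triangles in the second, and open blue squares for BiTS in the fit of both sets. The circles and triangles lie between -0.16 and 0.20, and the BiTS squares reach -0.47.

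The labelled cell type was checked against markers. Summed T cell markers, Cd3e, Cd8a, Cd8b1, Trac, Cd2, Thy1 and Cd5, held 1225 and 1254 CPM in isotype library 1 and BiTS(mut) library 2, and 1602 and 1576 CPM in libraries 4 and 5. The 20 dendritic cell markers held 2104 and 1988 CPM in the first set and 1154 and 1203 CPM in the second. Of these sums, Ccr7 alone held 729 and 781.7 CPM and 425.2 and 453.6 CPM. Clec9a stood at 49.5 and 39.96 CPM and at 13.78 and 14.4 CPM. Xcr1 stood at 35.49 and 25.33 CPM and at 13.15 and 11.06 CPM, so the cultures held RNA of other cells. Siglech was at 0 in all 6 libraries, and Cd209a, Clec10a and Sirpa did not exceed 0.9763 CPM in any. Macrophage markers stood at 251.5 and 257.6 CPM and at 138 and 139 CPM, B cell markers at 63.9 and 60.4 CPM and at 91.4 and 92.3 CPM, and NK cell markers at 42.37 and 47.25 CPM and at 38.45 and 41.65 CPM, in the same order. Stromal and endothelial markers stood at 16.5 and 18.2 CPM and at 24.1 and 21.9 CPM. Of 12 neutrophil markers 4 were at 0 in all 6 libraries, as were 4 of 7 erythroid markers. In BiTS(mut) against isotype these sums differed less within a set than between the sets, except for the NK, neutrophil and erythroid lists. Their part in the results was not tested, and fewer cells of a type and less RNA per cell cannot be told apart.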

How the data were processed

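The authors deposited raw counts per gene, 1 table per library, for 6 libraries of total RNA. Per the submitters' processing notes the build is mm10 and the notes name DESeq2. Strandedness, annotation release, counter and aligner were not given in the sources used here. Each table lists 49671 genes, and 92 ERCC spike-ins that were kept out of totals and tests. Symbols came from GENCODE release M21 by identifier, with 345 unmatched. Gene counts totalled 11635669 and 11104184 in isotype libraries 1 and 4, 15239077 and 12291548 in BiTS(mut) libraries 2 and 5, and 13482663 and 10813123 in BiTS libraries 3 and 6. A count of 3 is 0.197 to 0.277 CPM, for counting error only.

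After filterByExpr and TMM scaling, edgeR 4.0.16 (R 4.3.3, limma 3.58.1) fitted group and a block for the set over all 6 libraries. Its quasi-likelihood test was two-sided, p was adjusted over 13996 genes by Benjamini-Hochberg, and the threshold was 0.05. BiTS libraries entered to estimate the spread. The pairing comes from the title numbers; deviations from group means correlated at 0.66 to 0.74 within a set. Exclusion of a fold change used 2 one-sided tests from each gene's standard error; pair ratios used log2 CPM with a prior count of 2. Named genes were up to 10 increases and 10 decreases with a mean of at least 5 CPM and a symbol that is no gene-model name, filled by the smallest p with equal signs in both pairs, called list members, the ribosomal RNA list and 28 listed genes; Gm23935, Gm24270, Gm24187 and Gm5786 fall outside it and were named after their values were seen. The 39 lists held 666 genes. The comparison, genes and lists were chosen with earlier results of these data known. The steps were tested on simulated data. Alternatives were no block, 4 libraries only, DESeq2 1.42.0, limma-voom, other scalings and filters, and leaving out each library; leaving out the 6 genes called lower was added after the data were seen. The sequence of Mir6236 is not reported here.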

Additional observations from a re-analysis of the deposited data

Results flagged for a closer look

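ERCC spike-in transcripts, which enter none of the main comparisons, took 7.54% of all counts in BiTS(mut) library 5. The isotype libraries had 4.03% and 5.38%, BiTS(mut) library 2 had 3.36% and the BiTS libraries had 3.77% and 5.14%. The amount of spike-in added per library is not given in the sources used here, and the part of this difference in the results was not tested.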

How the results depend on the processing

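Of the 7 genes called in the fit with the replicate block, 0 were called without the block (0 higher, 0 lower), also with the 4 libraries alone, where 1.5-fold was excluded for 0 genes in each. DESeq2 called 2 (0 higher, 2 lower), limma-voom 2 higher, library totals alone 0 higher, a filter of 5 CPM 0 higher, and no filter 14 (5 higher) with 41.4% of signs equal. Spike-in scaling called 1 (0 higher, 1 lower), excluded 2-fold for 7090 genes and 1.5-fold for 1, and left 18% of signs equal. Without the list of ribosomal RNA-like transcripts 4 genes were called (3 lower), and without the 6 genes called lower 0 were (0 higher, 0 lower). Leaving out single libraries gave 7 to 132 calls, 2 to 58 higher and 5 to 74 lower.

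Signs turned for some genes that were not called in the fit of all 6 libraries. Of these, Gm42418 was called in both directions and Gzmb lower when 1 isotype library was left out. With spike-in scaling Cd3d was at -0.0441, Cd3g at -0.09, Il3 at -0.0556, Tnfrsf8 at -0.0042, Tcf7 at -0.0454 and Gm42418 at -0.10; Gm42418 was at -0.0052 with DESeq2 and -0.013 with library totals alone. Leaving out single libraries gave -0.0072 to 0.15 for Cd3d, -0.0699 to 0.0216 for Cd3e, -0.0619 to 0.306 for Cd247, -0.336 to 0.0691 for Gzmb, -0.30 to 1.40 for Il2, -0.25 to 0.39 for Il3, -0.0017 to 0.26 for Ltb, -0.39 to 0.0484 for Ccl17, -0.178 to 0.0933 for Ccl22, -0.225 to 0.0296 for Pdcd1, -0.0665 to 0.335 for Tnfrsf8, -0.136 to 0.0805 for Mki67, -0.10 to 0.25 for Tcf7, -0.39 to 0.43 for Gm42418 and -0.23 to 0.16 for Gm26917. The cause was not tested. Under 1 CPM, changes of 2-fold were not excluded for most genes.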

Other observations

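The heat shock genes Hspa1a and Hspa1b, inducible chaperones of near-identical sequence that counting may divide, moved in opposite directions in the pairs. Hspa1a was at 24.1 CPM in isotype library 1 and 46.7 CPM in BiTS(mut) library 2, and at 7.20 CPM in isotype library 4 and 6.02 CPM in BiTS(mut) library 5. Its log2 ratio was 0.98 in the first set and -0.26 in the second, and that of Hspa1b was 1.02 and -0.29. Their fitted log2 fold changes of 0.63 each did not pass in the edgeR fit of all 6 libraries (adjusted p = 0.315 and 0.314), but limma-voom called both, as did edgeR in 5 alternatives: with no filter on low counts, and without BiTS(mut) library 5, isotype library 4, BiTS library 3 or BiTS library 6. In BiTS, Hspa1a was at 92.3 and 13.3 CPM, above the isotype and BiTS(mut) libraries of the same set. BiTS exceeded BiTS(mut) by 1.02 on the log2 scale.

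The 15 genes encoded by the mitochondrial genome held 78460 CPM in isotype library 1, 87490 CPM in BiTS(mut) library 2, 109300 CPM in isotype library 4 and 106300 CPM in BiTS(mut) library 5. Of the 15, 13 had opposite signs in the pairs, 0 were called and all 15 had a 1.5-fold change excluded. Over all tested genes these shares were 50.9%, 0.05% and 70.1%.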
